A study of Mus musculus with 16 samples.

Results

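The effect of neonatal genistein that lasts into the adult uterus was taken as the mean of 2 differences: genistein minus control in mice given dexamethasone as adults, and genistein minus control in mice given vehicle as adults. All 16 of the 16 one-colour Agilent arrays of whole mouse uterus entered it, 8 genistein arrays against 8 control arrays, and no array was chosen by a measured value. The 4 genistein-dexamethasone arrays came from mice given 50 mg/kg genistein in corn oil on postnatal days 1 to 5 and 1 mg/kg dexamethasone, a synthetic glucocorticoid, at 8 weeks. The 4 genistein-vehicle arrays had the same neonatal dose and 100 µl of saline as adults. The 4 control-dexamethasone and 4 control-vehicle arrays had the same adult treatments after 20 µl of neonatal carrier, which the sample labels call saline and the series design text calls corn oil. Every mouse, controls included, had its adrenals and ovaries removed at 6 weeks, and the uterus was taken 4 h after the adult injection. Strain, and whether each array holds one animal or a pool, are not given in the sources used here, and the p-values therefore describe array-to-array spread only. In RNA from a whole organ, fewer cells of a type and less RNA per cell cannot be told apart.

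Genistein is a soy isoflavone that binds estrogen receptors. In newborn rodents the uterus is still differentiating, and estrogenic compounds given then are known to leave changes in epithelial, stromal and muscle gene expression that can be seen long after the compound is gone. Removing ovaries and adrenals takes away the main sources of estrogen and corticosterone, so the adult uterus is read here at a low hormonal baseline, with or without a glucocorticoid pulse. The organ's own markers were present: 36 of 39 listed markers of uterine epithelium, 24 of 26 of smooth muscle and 29 of 30 of stroma were measured above background.

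Array levels are given as log2 signal minus the array's 75th percentile of signal, called the scaled level, and every difference is genistein minus control on that log2 scale. Under dexamethasone the 75th percentile ran from 1321 to 1803 on genistein arrays and from 1987 to 2719 on control arrays, without overlap. Under vehicle it ran from 1439 to 1970 on genistein arrays and from 948 to 2029 on control arrays. Under dexamethasone the scaling thus separated the groups, and its part in the differences of that arm was not tested. The share of spots called well above background was 68.9 to 81.3%. The control-dexamethasone arrays stood apart from the other 12, with first principal component scores of 65.0 to 102 against -68.3 to 18.0. Control-vehicle array 1 stood apart from its own group: its score was -68.3, beside -57.9 to -10.2 on the genistein arrays and 8.95 to 18.0 on the other 3 control-vehicle arrays. The arrays lay on 5 slides, of which 1 held genistein arrays only (3 arrays), 1 held control-vehicle array 3 alone and was scanned on another day, and 2 held all 4 groups.

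On the mean of both adult treatments, 5642 of 24651 genes (22.9%) differed at an adjusted p below 0.05 in limma's moderated test, 3809 higher (15.5%) and 1833 lower (7.44%) after genistein. An unadjusted p below 0.05 was reached by 10121 genes (41.1%). Of the called genes, 1646 (6.68% of all genes) differed by at least 2-fold, 1154 of them higher (4.68%). The share of calls that were higher, 67.5%, was 53.2% with quantile normalization and 51.8% with slide as a block. No gene was called on the mean after normexp background correction with the same scaling, or when only the 2 slides that held all 4 groups were used, where 7097 genes had an unadjusted p below 0.05. The smallest adjusted p was 0.00835. The 2 arms, which share no array, did not carry this equally: 5654 genes (22.9%) were called under dexamethasone, 4078 higher (16.5%) and 1576 lower (6.39%), while 1 gene (0.00406%) was called under vehicle, where 3427 genes (13.9%) had an unadjusted p below 0.05. That gene was 4930577N17Rik, higher by 0.97 under vehicle (adjusted p 0.033) and by 0.28 under dexamethasone, and it is named because it was the only call. The test of the difference between the arms called 0 genes at adjusted p below 0.05, with 3830 at an unadjusted p below 0.05. With array weights it called 96, and leaving out arrays gave at most 1. Without control-vehicle array 1 the mean called 7007 genes, and the fewest, 2849, were called without control-vehicle array 4.

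The direction seen in one arm could be read in the other, since no array was shared. The arms did share slides, and the slide with genistein arrays only held arrays of both arms. In these counts a shift of slides or dim genes common to genistein arrays cannot be told apart from the neonatal effect. Among the 1752 genes higher under vehicle at an unadjusted p below 0.05, 1459 (83.3%) were higher under dexamethasone, against 57.6% of all genes, with a median difference of 0.40. Among the 1675 genes lower under vehicle at that level, 234 (14%) were higher under dexamethasone and the median difference there was -0.51. The same fit also gave 141 genes called on the mean whose arms had opposite signs.

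**Figure D1:**
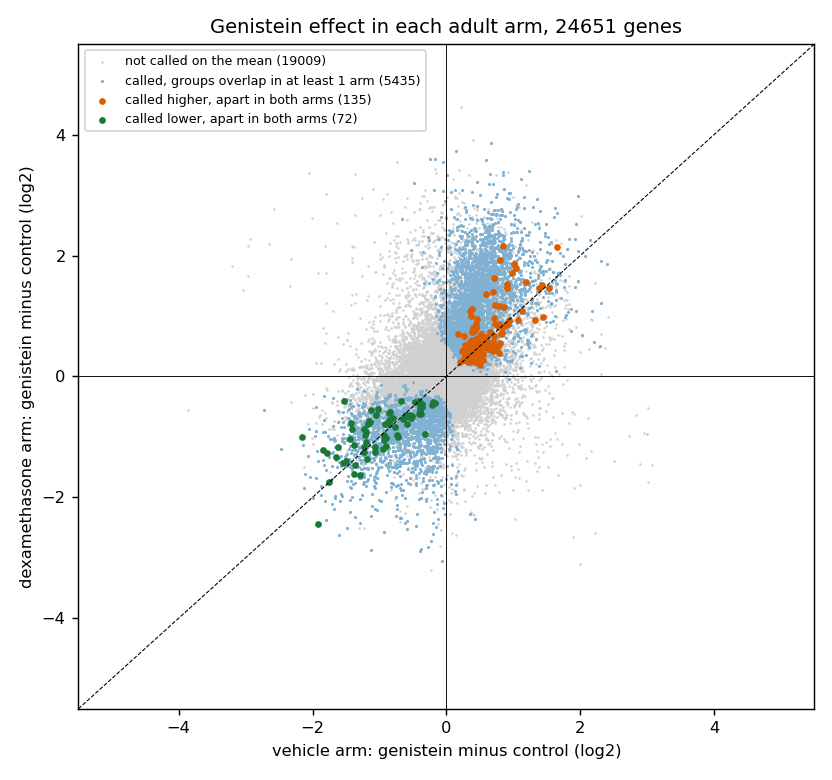
Genistein minus control in the vehicle arm (horizontal axis, log2) against the dexamethasone arm (vertical axis, log2) for 24651 genes, 1 point per gene, with the dashed line marking equal differences. The 135 genes called higher and 72 called lower whose 4 genistein arrays lay outside the range of the 4 control arrays in both arms are coloured, and most other called genes are further from 0 under dexamethasone than under vehicle.

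Lasting effects seen with and without dexamethasone were read most strictly from genes called on the mean whose 4 genistein arrays all lay above, or all below, the 4 control arrays in each arm. There were 207 of these (0.84% of genes tested), 135 higher (0.548%) and 72 lower (0.292%), and 137 had a gene symbol. Only 19 of the 135 were higher by 2-fold or more, and 27 of the 72 were lower by that much. Without control-vehicle array 1, 1167 genes met the rule, and without control-vehicle array 3, 619. Without control-vehicle array 2 or 4 it was met by 198 and 197. With an array left out the groups lie apart more easily, so a rise in this count is partly built into the rule. In 15 genes (0.0608%) the groups lay apart in both arms but in opposite directions.

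Among genes bright enough to be above background on all 16 arrays, those higher after genistein included Car7, a cytosolic carbonic anhydrase. Its scaled level was -1.37, -1.43, -1.02 and -0.92 on genistein-vehicle arrays, against -1.68, -1.92, -1.45 and -2.07 on control-vehicle arrays. Under dexamethasone it was -1.78, -1.22, -1.0 and -0.81 after genistein, against -2.89, -2.41, -2.51 and -2.48 in controls. The 8 genistein values and the 8 control values were thus separate within each arm, by a narrow margin under vehicle and a wide one under dexamethasone, and Car7 was higher by 0.98 (SE 0.15, adjusted p 0.00835). Mt4, a metallothionein best known from stratified epithelium, had scaled levels of -3.39, -3.23, -3.43 and -3.38 on genistein-vehicle arrays, against -4.38, -4.77, -3.66 and -4.69 on control-vehicle arrays. Under dexamethasone its levels were -3.44, -4.12, -3.19 and -2.72 after genistein, against -5.08, -5.43, -5.47 and -4.93 in controls. Its mean difference, 1.44 (SE 0.20, adjusted p 0.00835), was larger than that of Car7, with 1 control-vehicle array close to the genistein range. Adap1, an adaptor that binds inositol phosphates and acts on Arf6, differed by 0.91 under vehicle and 1.53 under dexamethasone (mean 1.22, SE 0.19, adjusted p 0.00835). Control-vehicle array 1, at -1.92, was next to the lowest genistein-vehicle array at -1.91. Dusp9, a phosphatase of the MAP kinases, was higher by 1.05 (SE 0.17) and Mrgpre, a G-protein-coupled receptor of the Mas-related family, by 0.96 (SE 0.16), each with adjusted p 0.00835.

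Sprr2b belongs to the small proline-rich proteins, which are cross-linked into the envelope of epithelial cells and are induced by estrogen in the mouse uterus. It is described here although it was chosen after its values were seen. Its scaled level was -0.09, -0.13, 0.16 and -0.16 on genistein-vehicle arrays, against -0.45, -0.96, -0.44 and -1.23 on control-vehicle arrays. On dexamethasone arrays it was -0.32, -0.23, 0.05 and -0.15 after genistein, against -1.08, -1.48, -1.09 and -0.88 in controls. The groups were apart in both arms, with differences of 0.71 under vehicle and 0.97 under dexamethasone (mean 0.84, SE 0.13, adjusted p 0.00835). Sprr2g was higher by 1.26 (SE 0.33, adjusted p 0.0193), with 1.32 under vehicle and 1.21 under dexamethasone, and Sprr2e by 0.99 (SE 0.21, adjusted p 0.0119), with 0.49 and 1.48, although their groups overlapped in at least 1 arm. Members of this family are close copies of each other, so a probe may read more than 1 of them. The promoters of Sprr2b and Sprr2e, the members of the 3 that the RefSeq table lists, are shown because both genes were higher: they run 250 bases up to the transcription start, at chr3:92316455-92316704 and chr3:92351893-92352142 of GRCm38.p6, both on the plus strand. Capitals mark an AP-1 motif (TGANTCA, searched on both strands) and a TATA box (TATAAA).
Sprr2b: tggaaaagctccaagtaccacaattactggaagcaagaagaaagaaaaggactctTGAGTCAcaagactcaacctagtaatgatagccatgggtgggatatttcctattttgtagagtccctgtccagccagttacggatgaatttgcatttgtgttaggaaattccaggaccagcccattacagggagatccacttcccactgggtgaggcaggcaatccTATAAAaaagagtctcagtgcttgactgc
Sprr2e: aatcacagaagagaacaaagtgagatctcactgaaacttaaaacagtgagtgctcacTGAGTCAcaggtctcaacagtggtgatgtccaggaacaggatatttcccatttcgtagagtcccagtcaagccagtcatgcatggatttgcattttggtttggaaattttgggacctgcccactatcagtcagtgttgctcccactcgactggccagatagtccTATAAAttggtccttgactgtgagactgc
The 2 stretches matched at 138 of 250 positions without gaps. The AP-1 motif began at -195 in Sprr2b and -193 in Sprr2e and the TATA box at -29 in both, counted from the start. In windows of 300 bases across 32851 promoters of that table, 7.81% held TGANTCA and 13.6% held TATAAA. The estrogen response element GGTCANNNTGACC was in neither promoter, and 0.07% of all windows held it. A match is a description of these letters and not a site of binding.

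**Figure D2:**
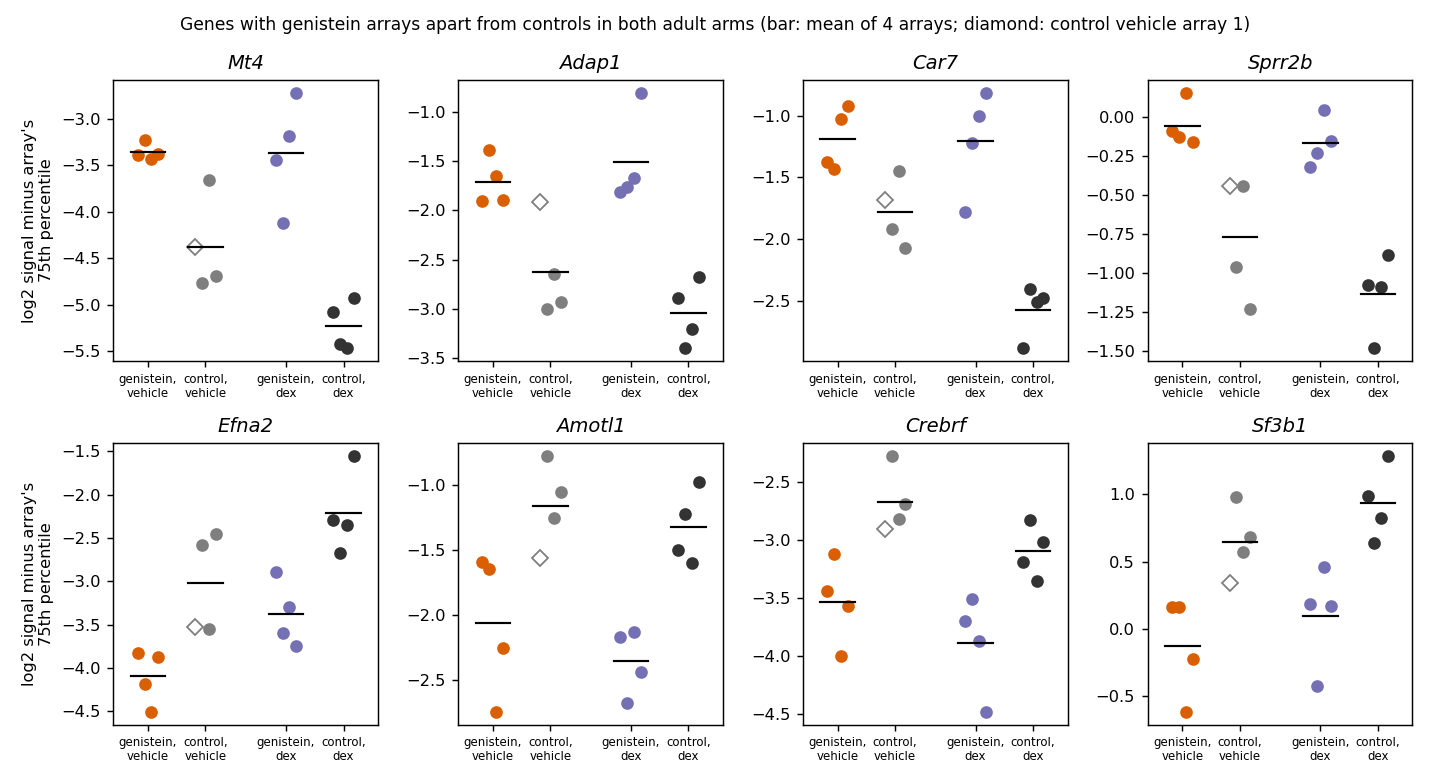
Scaled level (log2 signal minus the array's 75th percentile) of 8 genes on each of 16 arrays, with a bar at the mean of 4 arrays and a diamond for control-vehicle array 1. In each adult arm the genistein arrays of Mt4, Adap1, Car7 and Sprr2b lie above the controls, and those of Efna2, Amotl1, Crebrf and Sf3b1 lie below them.

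Of the 12 largest rises with groups apart in both arms, 7 were dim genes that fell below background on at least 1 array. Olfr394, an odorant receptor, was well above background on all 8 genistein arrays and on 0 of 8 control arrays, and was at least 2.60-fold higher (adjusted p 0.00835). Olfr826, another odorant receptor, was above background on 7 of 8 genistein arrays and 0 of 8 control arrays and was at least 1.79-fold higher (adjusted p 0.00979). Both passed the filter on low signal through genistein arrays alone, so their p-values were computed against control signals near background and are given as a description. Taar4, a trace amine receptor of olfactory neurons, was higher by 1.5 (SE 0.49, adjusted p 0.0409), a call that was lost without any 1 of 10 arrays, with adjusted p up to 0.072. Loxhd1, a gene of inner ear hair cells, was higher by 1.47 (SE 0.23, adjusted p 0.00835), and Krt71, a keratin of the hair follicle's inner root sheath, by 1.37 (SE 0.31, adjusted p 0.0132), with 7 of 8 genistein and 1 of 8 control arrays above background. Krt71 thus passed the filter on low signal mainly through genistein arrays, and its p-value is given as a description. Elovl2, an elongase of long-chain fatty acids, was higher by 1.13 (SE 0.28, adjusted p 0.017) and Pla2g1b, the pancreatic phospholipase, by 0.93 (SE 0.20, adjusted p 0.0114).

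The odorant, vomeronasal and trace amine receptor genes as a family were chosen after their values were seen and are described without a test: of 556 measured, 210 were called higher and 0 lower, beside 15.5% and 7.44% of all genes, with a median difference of 1.13 (0.63 under vehicle and 1.57 under dexamethasone). Genes entered through the filter on low signal unevenly: 239 of the 556 were above background on fewer than 4 control arrays and 38 on fewer than 4 genistein arrays. With no filter 212 of 1024 were called higher and 0 lower (20.7% higher, beside 10.8% of all genes in that fit, median 0.79), and among genes above background on all 16 arrays 49 of 95 were called higher and 0 lower (51.6%, beside 15.5%, median 0.89). Their median level, taken from each gene's mean over the 16 arrays, was 0.68, 0.92, 0.40 and 0.42 on genistein-vehicle arrays, against 0.90, -0.05, -0.69 and -0.21 on control-vehicle arrays. On dexamethasone arrays it was 0.45, 0.79, 0.75 and 1.00 after genistein, against -0.81, -0.73, -0.87 and -1.21 in controls. All 8 genistein arrays were positive and 7 of 8 control arrays negative, and the exception was control-vehicle array 1. Of 1071 receptor probes, 40.3 to 57.0% were well above background on genistein arrays, against 16.5 to 50.5% on control arrays. Within the 2 slides that held all 4 groups the family's median differences were 0.97 and 1.42. Quantile normalization called 152 of the 556 higher and 0 lower, with a median of 0.95. The part that this shift of receptor genes plays in the rise of other dim genes was not tested.

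Calls differed with the brightness of a gene. In the dimmest of 5 equal classes of signal 938 of 4931 were called higher (19%) and 297 lower (6.02%), beside 15.5% and 7.44% of all genes. The median difference there was 0.45 (0.18 under vehicle and 0.64 under dexamethasone). In the brightest class 712 of 4930 were called higher (14.4%) and 269 lower (5.46%), with a median of 0.08. Genes apart in both arms numbered 14 higher and 16 lower of 4931 in the dimmest class and 43 higher and 6 lower of 4930 in the brightest, beside 0.548% higher and 0.292% lower of all genes.

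**Figure D3:**
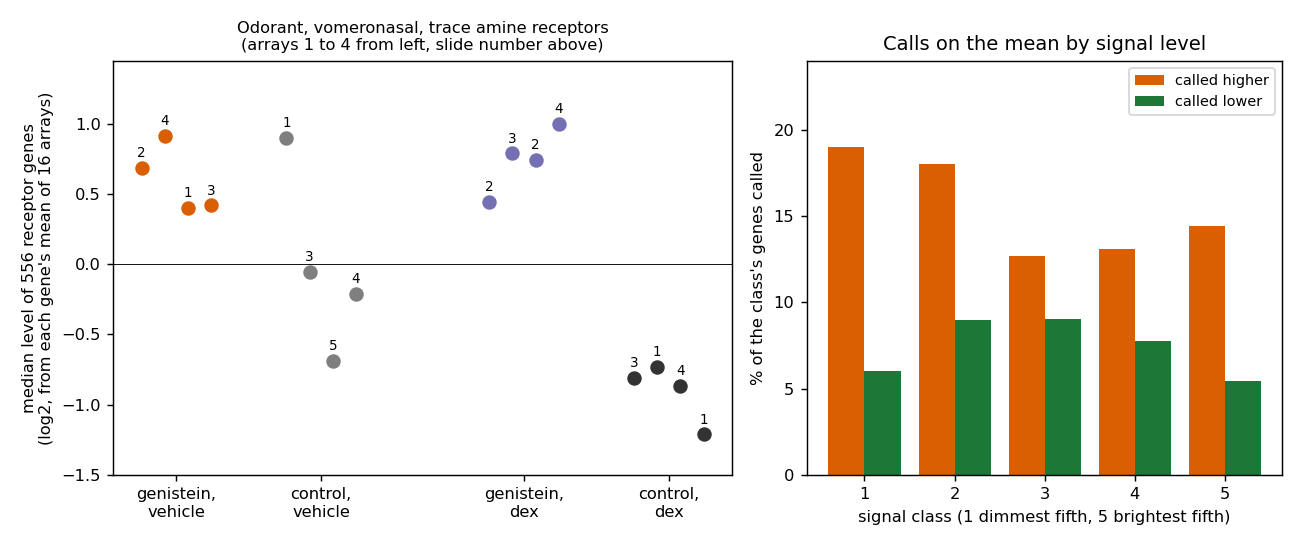
Left, median level of 556 odorant, vomeronasal and trace amine receptor genes on each array (log2, from each gene's mean over 16 arrays), with the slide number above each point. All genistein arrays lie above 0, as does control-vehicle array 1 at 0.90. Right, percent of genes called higher and lower on the mean in 5 classes of signal, from 19% and 6.02% in the dimmest class to 14.4% and 5.46% in the brightest.

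Among the genes lower after genistein in both arms, Efna2, a membrane ligand of the Eph receptors that guide cell contacts, had scaled levels of -3.83, -4.18, -4.51 and -3.88 on genistein-vehicle arrays, against -3.52, -2.58, -3.55 and -2.45 on control-vehicle arrays. Under dexamethasone they were -2.89, -3.60, -3.29 and -3.75 after genistein, against -2.29, -2.67, -2.35 and -1.55 in controls. Every genistein array lay below every control array of its arm, and the differences were -1.07 under vehicle and -1.17 under dexamethasone (mean -1.12, SE 0.22, adjusted p 0.00948). Sf3b1, a core component of the U2 particle of the spliceosome, had scaled levels of 0.16, 0.16, -0.62 and -0.23 on genistein-vehicle arrays, against 0.34, 0.98, 0.57 and 0.68 on control-vehicle arrays. Under dexamethasone its levels were 0.18, -0.43, 0.46 and 0.17 after genistein, against 0.99, 0.64, 0.82 and 1.29 in controls. Its difference was -0.81 (SE 0.16, adjusted p 0.0101) on its brightest probe and -0.28 on its other probe, which did not pass when every probe was tested (adjusted p 0.0967). Crebrf, a negative regulator of CREB3 in the unfolded protein response, was lower by 0.86 under vehicle and 0.79 under dexamethasone (mean -0.83, SE 0.16, adjusted p 0.0099).

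Rgsl1, a protein with an RGS-like domain, differed by -1.24 (SE 0.27, adjusted p 0.012), and Plcb4, a phospholipase C that G proteins activate, by -0.95 (SE 0.22, adjusted p 0.0152). Nat3, an N-acetyltransferase, had the largest fall of the genes apart in both arms, -2.18 (SE 0.46, adjusted p 0.0113), and was well above background on 4 of 8 genistein arrays and 8 of 8 control arrays. Bcl2, the inhibitor of apoptosis, was lower by 0.64 under vehicle and 0.71 under dexamethasone (mean -0.68, SE 0.19, adjusted p 0.024), and its call was lost without control-vehicle array 2 (adjusted p 0.0515). The other probe of Bcl2 differed by -0.51 and did not pass when every probe was tested (adjusted p 0.0977).

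For several of the falls a gene's probes disagreed. Amotl1, an angiomotin that binds YAP at cell junctions, differed by -0.96 (SE 0.18, adjusted p 0.00926) on its brightest probe and by -0.10 on its other probe, whose mean level was lower. Lims1, an adaptor of integrin adhesions, differed by -0.87 (SE 0.21) and -0.14 on its 2 probes, Thpo, the ligand that drives platelet formation, by -0.78 (SE 0.19) on its brightest probe and by 0.02 and -0.85 on the others, and Taf7, a subunit of the general factor TFIID, by -0.96 (SE 0.18), -0.08 and -0.59. Arhgap5, a GTPase-activating protein, differed by -0.86 (SE 0.16) on its brightest probe and by -0.39, -0.15 and -0.37 on the others. Gnal, the G protein of olfactory neurons, differed by -1.49 (SE 0.38) on its brightest probe and by -0.41 and 0.70 on the others. Over all genes called lower that had other measured probes, 508 of 748 other probes (67.9%) had the same sign and 137 (18.3%) were called lower themselves. For genes called higher, 669 of 864 (77.4%) had the same sign and 237 (27.4%) were called. For genes not called, 59.3% of 6335 other probes had the sign of the brightest probe, and 781 (12.3%) were called in that direction. Other probes called in the opposite direction made up 4.01% for genes called lower, 3.12% for genes called higher and 6.41% for genes not called.

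The genes called lower covered longer stretches of the genome. The median span in the annotation was 40.0 kb for 892 genes called lower with a symbol, 11.5 kb for 2790 called higher and 22.4 kb for 12846 not called. Among genes apart in both arms it was 61.1 kb for the 32 lower and 15.1 kb for the 105 higher. In the brighter 60% of genes the medians were 40.5 kb for genes called lower, 12.9 kb for genes called higher and 24.5 kb for genes not called, so the order was the same there.

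Of the genes that estrogen is known to induce in the adult uterus, 10 of 46 were called higher and 0 lower, where the background is 15.5% and 7.44% of all genes. The list's median was 0.27 (0.40 under vehicle and 0.09 under dexamethasone), beside 0.08 (0.05 and 0.12) for all genes. Beside the small proline-rich genes these included Tff1, a trefoil peptide of mucous epithelium, higher by 1.16 (SE 0.29, adjusted p 0.0177) with 0.55 under vehicle and 1.78 under dexamethasone. Ltf, lactoferrin, the classic estrogen-induced secretory protein of the mouse uterus, was measured on 15 arrays, since its spots were unusable on genistein-dexamethasone array 4. It ranged from 1.22 to 3.94 on genistein-vehicle arrays against 0.51 to 2.61 on control-vehicle arrays, and from 1.68 to 3.18 on genistein-dexamethasone arrays against 2.05 to 2.85 on control-dexamethasone arrays. The groups overlapped in both arms, and the mean difference of 0.63 (SE 0.43, adjusted p 0.275) did not pass the test. Without genistein-vehicle arrays 3 and 4 the estrogen list held 4 calls, all higher, in a fit that called 3005 genes in all.

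The hormone receptors themselves did not pass the test on the mean. Esr1, estrogen receptor alpha, differed by -0.60 (SE 0.21, adjusted p 0.0532), with -0.44 under vehicle and -0.76 under dexamethasone, and by 0.06 on its other probe. It was called in 16 of 42 alternatives, among them the fit without control-vehicle array 1 (-0.68, adjusted p 0.0318). The 42 include differences within single slides, which held no test, and the looser threshold of 0.1, which 0.0532 passes. Pgr, the progesterone receptor, differed by 0.24 (SE 0.22, adjusted p 0.412) and Nr3c1, the glucocorticoid receptor, by -0.21 (SE 0.09, adjusted p 0.093). In the list of steroid receptors, cochaperones and steroid-metabolising enzymes, 6 of 45 were called higher and 1 lower (15.6% called, beside 22.9% of all genes, median 0.04). These included Cyp11a1, the first enzyme of steroid synthesis, and Cyp19a1, aromatase, which are ovarian and adrenal enzymes and were dim: Cyp11a1 differed by 1.81 (SE 0.32, adjusted p 0.009) and was well above background on 5 of 8 genistein and 1 of 8 control arrays, and Cyp19a1 by 1.35 (SE 0.22, adjusted p 0.00835) with 3 of 8 and 1 of 8. Both passed the filter on low signal mainly through genistein arrays, so their p-values are given as a description. Fshr, the follicle-stimulating hormone receptor, differed by 1.53 (SE 0.39, adjusted p 0.0188) and was dim too, falling below background on at least 1 array. Of 20 markers of mesothelium, ovary and oviduct, 7 were called higher and 1 lower, beside 15.5% and 7.44% of all genes. After normexp and quantile normalization 2 were higher and 1 lower, in a fit that called 2787 genes higher and 2459 lower. The olfactory receptor genes were high on the same arrays, and their part in these differences was not tested.

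Genes that earlier studies tied to neonatal estrogen or phytoestrogen exposure of the mouse tract gave few calls: 2 of 33 were called higher and 2 lower, beside 15.5% and 7.44% of all genes, with a median of -0.07. Runx1, a transcription factor, was higher by 0.93 (SE 0.19, adjusted p 0.0101), but its other probe differed by -0.51. Hmgn5, a nucleosome-binding protein, was lower by 0.47 (SE 0.13, adjusted p 0.0259), with -0.03 on its other probe, and its call was lost without control-vehicle array 2 or array 4 (adjusted p up to 0.0576). Trp63, the master factor of basal epithelium, differed by -0.83 on the mean (SE 0.23, adjusted p 0.025), but by 0.15 under vehicle and -1.80 under dexamethasone. The test of that difference between arms had an unadjusted p of 0.000836 and an adjusted p of 0.162, and the call on the mean was lost without control-vehicle array 2 (adjusted p 0.0542). Wnt4, a Wnt ligand of stroma and epithelium, likewise rested on 1 arm, at 0.05 under vehicle and 1.32 under dexamethasone (mean 0.69, SE 0.15, adjusted p 0.0131), with an adjusted p of 0.162 for the difference.

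Of 36 markers of luminal and glandular epithelium 2 were called higher and 0 lower, beside 15.5% and 7.44% of all genes, with a median of 0.18 (0.30 under vehicle and 0.06 under dexamethasone). With slide as a block 7 and 0 were called, in a fit that called 4020 higher and 3736 lower of all 24651 genes. Krt8, a keratin of simple epithelium, was higher by 0.65 (SE 0.21, adjusted p 0.0412), a call lost without any 1 of 9 arrays, with adjusted p up to 0.0862. The other probe of Krt8 differed by 0.51 and did not pass when every probe was tested (adjusted p 0.113). Of 25 basal and squamous markers 6 were called higher and 1, Trp63, lower (28% called, beside 22.9% of all genes), with a median of 0.25 (0.65 and 0.09). They included Krt6b, a keratin of stratified and wounded epithelium, which differed by 1.87 (SE 0.33, adjusted p 0.009) and was above background on 8 of 8 genistein and 1 of 8 control arrays, that 1 being control-vehicle array 1. Krt6b passed the filter on low signal mainly through genistein arrays, so its p-value is given as a description. Krt10, a keratin of suprabasal epidermal cells, was higher by 1.10 (SE 0.26, adjusted p 0.0151), and Sprr1a by 0.87 (SE 0.28, adjusted p 0.039), of which 1.64 fell under vehicle and 0.09 under dexamethasone. Krt10 was dim and fell below background on at least 1 array. The call of Sprr1a was lost without any 1 of 9 arrays, with adjusted p up to 0.0824.

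Among cell cycle genes 9 of 39 were called higher and 0 lower (23.1% called, beside 22.9% of all genes), with a median of 0.42, from 0.68 under vehicle and 0.23 under dexamethasone. Mcm3, a subunit of the helicase that opens DNA for replication and chosen after its values were seen, was apart in both arms. Its scaled level was -0.27, -0.14, 0.82 and 0.47 on genistein-vehicle arrays, against -0.39, -0.41, -0.67 and -0.70 on control-vehicle arrays. On dexamethasone arrays it was -0.16, -0.19, -0.27 and -0.07 after genistein, against -0.89, -0.89, -0.42 and -0.53 in controls. Its difference was 0.64 (SE 0.15, adjusted p 0.0153). Ccne2, a cyclin of S-phase entry, was higher by 0.86 (SE 0.20, adjusted p 0.0156), Tk1, thymidine kinase, by 0.97 (SE 0.29, adjusted p 0.0326), and E2f1, the cell cycle factor, by 0.75 (SE 0.23, adjusted p 0.0365). Ccne2 was dim and fell below background on at least 1 array. The other probes of Ccne2 and E2f1 differed by 0.49 and 0.47 and did not pass when every probe was tested (adjusted p 0.0924 and 0.133). The calls of Tk1 and E2f1 were lost without any 1 of 8 and 9 arrays, with adjusted p up to 0.0691 and 0.0701. The median level of the cell cycle list was -0.02, 0.24, 0.95 and 0.40 on genistein-vehicle arrays, against 0.09, -0.38, -0.65 and -0.37 on control-vehicle arrays. On dexamethasone arrays it was -0.34, -0.47, 0.20 and 0.80 after genistein, against -0.23, -0.74, 0.30 and 0.14 in controls. The groups overlapped in both arms. Arrays 3 and 4 of the genistein-vehicle group were also high in the epithelial list, at 0.59 and 0.58 beside -0.30 and -0.31 on arrays 1 and 2, and low in the smooth muscle list, at -0.48 and -0.11 beside 0.33 and 0.35. Without those 2 arrays 3 cell cycle genes were called, all higher, in a fit that called 2352 genes higher and 653 lower. The part of tissue make-up in this result was not tested.

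Smooth muscle markers had 1 call higher and 2 lower among 24 (12.5% called, beside 22.9% of all genes), with a median of -0.08 (-0.36 under vehicle and 0.20 under dexamethasone). Synm, an intermediate filament protein of muscle, was lower by 1.31 (SE 0.39, adjusted p 0.0289), with its lowest value on genistein-vehicle array 3, and its call was lost without any 1 of 5 arrays (adjusted p up to 0.0591). The other probe of Synm differed by -0.40 and did not pass when every probe was tested (adjusted p 0.209). Ldb3, a Z-disc protein of striated muscle, was higher by 1.04 (SE 0.26, adjusted p 0.017), while its other probes disagreed in sign. Stroma gave 2 calls higher and 1 lower of 29 (10.3%), and endothelium 5 higher and 1 lower of 29 (20.7%). Plvap, a protein of capillary fenestrae, was higher by 0.49 (SE 0.14, adjusted p 0.025), with 0.47 under vehicle and 0.52 under dexamethasone, a call lost without control-vehicle array 2 or 4 (adjusted p up to 0.0543). Egfl7, a matrix protein secreted by endothelial cells, was higher by 0.53 (SE 0.14, adjusted p 0.0229), with 0.09 under vehicle and 0.96 under dexamethasone, a call lost without control-vehicle array 4 (adjusted p 0.0514). Adipocyte markers had 0 calls higher and 1 lower of 23, and their medians had opposite signs, 0.96 under vehicle and -0.65 under dexamethasone. Their median level ran from -0.35 to 0.47 on genistein-vehicle arrays, against -1.04 to -0.21 on control-vehicle arrays, and from -1.10 to 0.39 on genistein-dexamethasone arrays, against -0.79 to 2.08 on control-dexamethasone arrays.

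Lymphocyte markers had 7 calls higher and 0 lower of 34 (20.6% called, beside 22.9% of all genes), with medians of 0.01 under vehicle and 0.82 under dexamethasone. Their median level was 0.25, 0.17, 0.23 and -0.18 on genistein-dexamethasone arrays, against -0.51, -0.52, -0.98 and -0.55 on control-dexamethasone arrays, while the vehicle groups overlapped. With slide as a block and without control-vehicle array 1 the list had 3 calls, all higher, in a fit that called 4247 genes higher and 3572 lower. Cd4, the helper T-cell coreceptor, was higher by 0.82 (SE 0.15, adjusted p 0.00932), with 0.46 under vehicle and 1.18 under dexamethasone. Flt3, a receptor of dendritic and lymphoid progenitors, was higher by 1.07 (SE 0.27, adjusted p 0.0173). Macrophage and dendritic markers had 3 calls higher and 1 lower of 31. C1qb, a chain of the complement starter C1q made by macrophages, was higher by 0.66 (SE 0.17, adjusted p 0.019), with 0.42 under vehicle and 0.90 under dexamethasone. In the complement list 7 of 32 were called higher and 1 lower (25% called, beside 22.9% of all genes). After normexp and quantile normalization 1 and 1 were called, in a fit that called 2787 genes higher and 2459 lower. Among the 7 was Mbl2, mannose-binding lectin, above background on 4 of 8 genistein and 0 of 8 control arrays. Mbl2 was at least 1.31-fold higher (adjusted p 0.009, given as a description because it passed the filter through genistein arrays alone). Eosinophil and mast cell markers had 2 calls of 16, both higher: Ccr3, the eotaxin receptor, by 0.89 (SE 0.17, adjusted p 0.00945), and Tph1, the serotonin-synthesis enzyme of mast cells, by 0.92 (SE 0.18, adjusted p 0.00964). Neutrophil markers had 1 call of 15.

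Among 56 chemokines, cytokines and other inflammatory genes 5 were called higher and 2 lower (12.5% called, beside 22.9% of all genes). Ccl4, a macrophage chemokine, had scaled levels of -1.60, -1.71, -2.03 and -2.04 on genistein-vehicle arrays, against -1.62, -2.24, -1.84 and -1.89 on control-vehicle arrays. Under dexamethasone its levels were -3.05, -3.73, -3.92 and -3.95 after genistein, against -4.86, -5.48, -5.95 and -5.08 in controls. The vehicle groups overlapped and the dexamethasone groups did not, and the mean difference of 0.87 (SE 0.18, adjusted p 0.0103) came from 0.06 under vehicle and 1.68 under dexamethasone, with an adjusted p of 0.162 for the difference between them. Tlr4, the endotoxin receptor, was lower by 0.82 (SE 0.21, adjusted p 0.0179), with -0.38 and -1.26. Of 39 interferon-stimulated genes 3 were called higher and 1 lower, and Oas3, an antiviral synthetase, was higher by 1.25 (SE 0.30, adjusted p 0.0159) with 1.10 under vehicle and 1.40 under dexamethasone.

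Of genes that glucocorticoids are known to induce, 4 of 48 were called higher and 5 lower, beside 15.5% and 7.44% of all genes, with a median of -0.18 (-0.10 under vehicle and -0.19 under dexamethasone). Klf15, a factor of amino acid and lipid metabolism, had scaled levels of 1.92, 1.65, 0.60 and 1.10 on genistein-vehicle arrays, against 1.68, 1.90, 1.98 and 1.88 on control-vehicle arrays. Under dexamethasone its levels were 3.46, 3.26, 3.56 and 3.29 after genistein, against 4.42, 4.58, 4.34 and 3.78 in controls. The groups were apart under dexamethasone and overlapped under vehicle, and Klf15 was lower by 0.71 (SE 0.17, adjusted p 0.0166) with -0.17 on its other probe. Rgs2, a regulator that turns off G-protein signalling in smooth muscle, was lower by 0.67 (SE 0.18, adjusted p 0.0204) with -0.64 under vehicle and -0.70 under dexamethasone. Alox5ap, the activator of leukotriene synthesis, was higher by 0.64 (SE 0.13, adjusted p 0.0102) with 0.56 and 0.72, and Tsku, a secreted inhibitor of several growth factors, by 0.66 (SE 0.13, adjusted p 0.0102) with 0.14 and 1.17. On their brightest probes the most used reporters of the receptor did not pass the test. Tsc22d3, which encodes the anti-inflammatory protein GILZ, differed by -0.23 (SE 0.15, adjusted p 0.278), Fkbp5, a cochaperone of the receptor, by -0.66 (SE 0.27, adjusted p 0.0831), Per1, a clock repressor, by -0.21 (SE 0.15, adjusted p 0.298), and Sgk1, a kinase of ion transport, by -0.01 (SE 0.15, adjusted p 0.98). Tsc22d3 was called lower in 2 of 42 alternatives (adjusted p down to 0.0115). Fkbp5 was called lower in 4 of 42, among them the looser threshold of 0.1 and the fit without control-vehicle array 2, at -0.84 (adjusted p 0.0369). Of the 2 dimmer probes of Fkbp5, 1 differed by -0.81 and passed when every probe was tested (adjusted p 0.0175), and the other by -0.18 (adjusted p 0.457). Among clock genes 0 of 24 were called higher and 3 lower, and Nfil3, a repressor of clock output, differed by -0.11 under vehicle and -1.12 under dexamethasone (mean -0.61, SE 0.11, adjusted p 0.009), while its other probe differed by -0.13 on the mean (adjusted p over all probes 0.572).

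In the Wnt list 3 of 55 genes were called higher and 7 lower, beside 15.5% and 7.44% of all genes, with a median of -0.11. Rspo3, a secreted amplifier of Wnt signals, had scaled levels of -0.67, -0.78, -2.96 and -1.39 on genistein-vehicle arrays, against -0.83, 0.20, -0.96 and -0.18 on control-vehicle arrays. Under dexamethasone its levels were -1.26, -2.04, -2.20 and -2.45 after genistein, against -0.43, -0.65, -1.20 and -0.87 in controls. Its difference was -1.10 (SE 0.31, adjusted p 0.0261), a call lost without control-vehicle array 2 or 4 (adjusted p up to 0.0563). Fzd5, a Wnt receptor, differed by -0.88 (SE 0.22, adjusted p 0.0167) on its brightest probe and by 0.77 on its other one. The rises were Wnt4, Ror2, a receptor of non-canonical Wnt ligands, at 0.95 (SE 0.19, adjusted p 0.0101), and Sost, an antagonist best known from bone, at 1.10 (SE 0.22, adjusted p 0.00979). When every probe was tested, the other probe of Ror2 passed at 0.72 (adjusted p 0.0279). That of Sost, at 0.60, did not (adjusted p 0.186). Of 78 patterning genes 7 were called higher and 4 lower (14.1% called, beside 22.9% of all genes). Tbx5, a factor of heart and forelimb, was higher by 1.53 (SE 0.32, adjusted p 0.0106) and Eya4, a transcriptional coactivator with phosphatase activity, by 1.43 (SE 0.29, adjusted p 0.0102). These dim genes were above background on 0 of 4 control-dexamethasone arrays. Their p-values rest partly on control signals near background and are given as a description. The other probe of Eya4 differed by 0.70 and did not pass when every probe was tested (adjusted p 0.107). Of 36 genes of implantation and decidualization 4 were called higher and 2 lower. Fst, the activin antagonist follistatin, was lower by 1.00 (SE 0.28, adjusted p 0.0239) with -0.47 under vehicle and -1.52 under dexamethasone, and Ptgs1, cyclooxygenase 1, was higher by 0.62 (SE 0.17, adjusted p 0.0257) with 0.55 and 0.68, a call lost without control-vehicle array 2 (adjusted p 0.0553).

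Chromatin and DNA methylation enzymes had the largest share of calls among lists of more than 30 genes, 24 of 76 (31.6% beside 22.9% of all genes), split into 13 higher and 11 lower with a median of 0.09. The smaller list of mesothelium, ovary and oviduct had 40% of 20 called. Without genistein-vehicle arrays 3 and 4 the chromatin list had 7 higher and 3 lower, in a fit that called 2352 genes higher and 653 lower. Suv39h1, a methyltransferase of heterochromatin chosen after its values were seen, had scaled levels of -0.10, 0.06, 0.46 and -0.03 on genistein-vehicle arrays, against -0.36, -0.24, -0.14 and -0.33 on control-vehicle arrays. Under dexamethasone its levels were 0.08, 0.35, 0.03 and 0.09 after genistein, against -0.31, -0.28, -0.24 and -0.40 in controls. It was apart in both arms and higher by 0.40 (SE 0.09, adjusted p 0.0147). Sirt6, a deacetylase of histones and a guard of telomeres, was apart in both arms too, higher by 0.70 (SE 0.11, adjusted p 0.00835) with 0.45 under vehicle and 0.94 under dexamethasone. Smyd1, a muscle methyltransferase, was higher by 0.81 (SE 0.14, adjusted p 0.00835). On its other probe it differed by 0.37, which did not pass when every probe was tested (adjusted p 0.0714). Kdm5a, a histone demethylase, was lower by 0.80 (SE 0.19, adjusted p 0.0163), with -0.58 and -1.03.

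Subunits of oxidative phosphorylation had 14 calls higher and 0 lower of 71 (19.7% called, beside 22.9% of all genes), with medians of 0.15, 0.16 under vehicle and 0.15 under dexamethasone. Quantile normalization gave 16 higher and 5 lower, in a fit that called 3156 higher and 2781 lower of all 24651 genes. Cyc1, a cytochrome of complex III, was higher by 0.58 (SE 0.13, adjusted p 0.0126) with 0.44 under vehicle and 0.71 under dexamethasone. Atp5g2 and Atp5g1, which encode the same mature ring subunit of the ATP synthase, were higher by 0.66 (SE 0.14, adjusted p 0.011) and 0.59 (SE 0.14, adjusted p 0.0167), and Cox5b, a subunit of complex IV, by 0.46 (SE 0.11, adjusted p 0.0177). Without genistein-vehicle arrays 3 and 4 the list held 3 calls, all higher, in a fit that called 2352 genes higher and 653 lower. Ribosomal proteins had 6 calls higher and 0 lower of 62 (9.68% called), and 6 higher and 5 lower in the fit with quantile normalization. Slide as a block gave 18 higher and 0 lower, in a fit that called 4020 higher and 3736 lower of all genes. In the apoptosis list 3 of 39 were called higher and 5 lower, with Bcl2 among the falls and Bak1, an effector that opens the mitochondrial membrane, higher by 0.55 (SE 0.14, adjusted p 0.0208). In the insulin and IGF list 2 of 38 were called higher and 3 lower, and Igf2r, which clears IGF2, was lower by 0.56 (SE 0.14, adjusted p 0.0167). Nerve and Schwann cell markers had 5 calls higher and 0 lower of 18, among them Tubb3, the neuronal tubulin, at 0.31 under vehicle and 1.81 under dexamethasone (mean 1.06, SE 0.20, adjusted p 0.009). Matrix genes had 5 calls higher and 1 lower of 79, among them Col4a4, a collagen of basement membranes, higher by 0.79 (SE 0.17, adjusted p 0.0122). Immediate early genes had 2 calls higher and 2 lower of 31, and Maff, a small bZIP factor, was lower by 0.64 (SE 0.15, adjusted p 0.0163). Heat shock genes had 3 calls higher and 1 lower of 38, and red blood cell markers 1 call of 7.

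**Figure D4:**
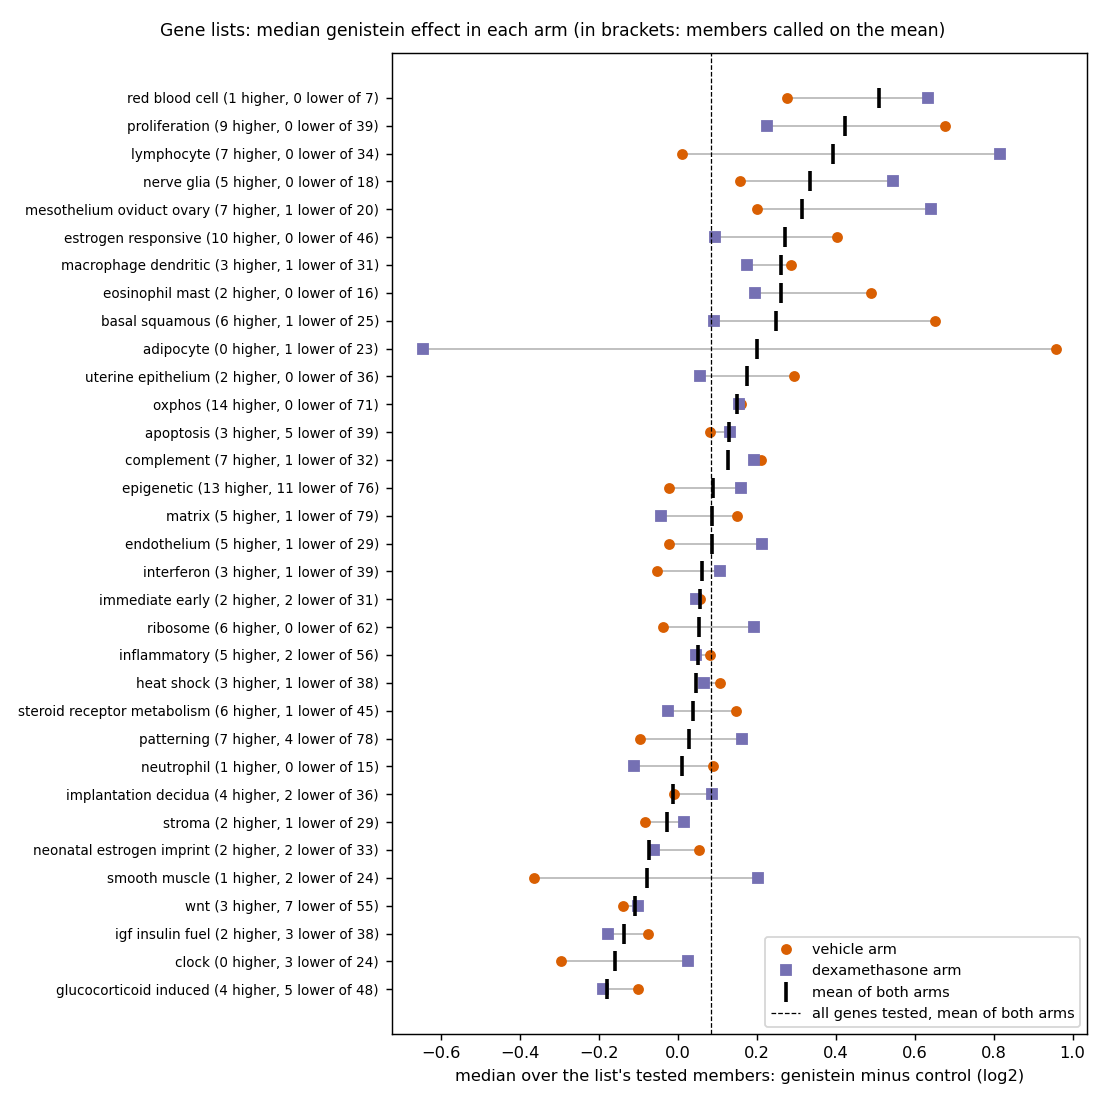
Median difference, genistein minus control (log2), over the measured members of 33 gene lists in the vehicle arm (circles), the dexamethasone arm (squares) and on the mean of both (ticks), with the median of all 24651 genes as a dashed line at 0.08. The lists with the widest gap between arms are the adipocyte list, at 0.96 under vehicle and -0.65 under dexamethasone, and the lymphocyte list, at 0.01 and 0.82.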

How the data were processed

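The files hold 1 scan of each of 16 Agilent arrays of design 014868. Per the file headers, the deposited values are spot intensity, which Agilent Feature Extraction 12.0.0.7 had background-subtracted, linear and without scaling across arrays. Version 9.5 is given in the submitters' processing notes. Spot flags of the deposited files, 0 or 1, were used as filters. The deposited series value table equals these intensities, with a largest difference of 0. Each array has 45018 spots, 1639 of them controls, which were left out.

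Log2 of the processed signal minus the array's 75th percentile was used. Flagged outlier spots were set to missing, repeated spots averaged and 807 probes with a missing value dropped (Ltf was fitted on 15 arrays). The low-signal filter asked for 4 or more arrays well above background and kept 32598 probes, and the brightest stood for each of 24651 genes, 16528 with a symbol. Symbols came from joining RefSeq accessions to the GRCm38.p6 annotation, which matched 28223 of 29245. No coordinates come from the arrays, whose grid uses mm9. The number of arrays limits the precision.

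A model with 4 group means was fitted with limma 3.58.1 in R 4.3.3 (tables handled in the data.table package, at 1.17.8), two-sided, with Benjamini-Hochberg adjustment over all genes in each comparison. Figures used matplotlib 3.10.9 in Python 3.11.15. The fit was tested on simulated data. A bound ("at least") was given where a probe was above background on 0 arrays of a side: the mean of the brighter side against the mean, over the dimmer side's arrays, of the higher of the lowest signal among probes well above background and the probe's own signal. The text names a selection from these: among genes with a symbol, called on the mean and apart in both arms, the top 12 in each direction by size, up to 4 called members of each list (up to 2 by smallest p where none was called), and a few fixed genes, of which 1 is not reported here. The members and lists were chosen with earlier results of these data known. Alternatives covered scaling, background, filters, probes, slide, replicate number, model, thresholds and leaving out arrays.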

Additional observations from a re-analysis of the deposited data

Results flagged for a closer look

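In 17 of 367 tested sets of 4 arrays, 1 array lay far from the other 3 by Dixon's test. Chance alone flags about 0.05 of sets, which is close to this share. The scaled levels of the distant arrays, with the range of the other 3, follow by group.

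On genistein-vehicle arrays, Sprr2g was -1.18 on array 3 (others -2.29 to -2.23) and Ccne2 was -3.72 on array 3 (others -4.70 to -4.59). Sost was -3.56 on array 2 (others -3.84 to -3.83) and Sirt6 was -3.82 on array 2 (others -4.29 to -4.27). On genistein-dexamethasone arrays, array 4 was high for Adap1 at -0.81 (others -1.82 to -1.67), Sirt6 at -3.71 (others -4.24 to -4.16) and Tbx5 at -4.37 (others -5.28 to -5.21). Array 2 of that group was low for Cyp11a1 at -7.58 (others -6.27 to -6.14) and Atp5g1 at 2.90 (others 3.47 to 3.55).

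On control-vehicle arrays, Gnal was -3.50 on array 2 (others -4.60 to -4.42), Synm was 1.35 on array 1 (others 2.07 to 2.18) and Fst was -4.55 on array 4 (others -4.03 to -3.94). On control-dexamethasone arrays, array 4 stood apart for Taar4 at -9.18 (others -5.70 to -5.18), Krt6b at -7.50 (others -8.09 to -8.00) and Igf2r at 2.27 (others 2.67 to 2.73). Array 2 of that group was high for Plvap at -0.61 (others -1.26 to -1.18) and Tsc22d3 at 5.54 (others 4.97 to 5.00).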

How the results depend on the processing

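On the mean of both arms 5642 genes were called, 67.5% of them higher. With single arrays left out, calls ran from 2849 to 7007, the share higher from 60.02 to 75.3%, genes apart in both arms from 197 to 1167, vehicle calls from 0 to 2, dexamethasone calls from 3293 to 5972 and calls of the difference between arms from 0 to 1. In every fit with arrays left out, groups lie apart more easily. Normexp background correction gave 0 calls on the mean, 0 genes apart in both arms, 0 under vehicle and 3297 under dexamethasone, and normexp by maximum likelihood gave 0, 0, 0 and 3115. After normexp the tenth percentile of signal was 235.3, 436.6 and 646.3 on 3 arrays and 62.4 to 69.6 on the others. Followed by quantile normalization, normexp gave 5246 calls, 53.1% higher, and 0 under vehicle. The 2 slides with all 4 groups gave 0, 0, 0 and 0. The cause of these changes was not tested.

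The share higher was 53.2% with quantile normalization, 58.2% with median scaling, 63.3% above background on all arrays, 64.6% with every probe by itself, 51.8% with slide as a fixed block, 65.5% with slide as a random block, 66.1% with a mean-variance trend, 64.6% at a minimum change of 1.5-fold, 64.5% at adjusted p below 0.1 and 63.5% in the brighter 50% of genes. Vehicle calls were 0 with quantile or median scaling, no filter, slide as a fixed block, the 2 groups alone, the trend and the brighter 50%. Array weights gave 11041 calls on the mean, 2 under vehicle, 11033 under dexamethasone and 96 for the difference. A 1.5-fold minimum gave 3454 calls and 109 apart, adjusted p below 0.1 gave 9098, and the brighter 50% gave 3091, 122 apart and 3188 under dexamethasone.

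Without genistein-vehicle arrays 3 and 4 there were 3005 calls (78.3% higher), 508 apart, 0 under vehicle and 1 for the difference. Without control-dexamethasone arrays 2 and 3 there were 3236 (80.2% higher), 0 under vehicle and 2394 under dexamethasone. Without control-vehicle array 1, quantile normalization gave 1406 apart, 2 under vehicle and 53.6% higher, and slide as a block gave 1111 apart and 54.3% higher. The last 2 fits, normexp by maximum likelihood or with quantile normalization, and the brighter 50% were chosen after seeing the data.

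Replicate numbers showed no clear pairing of the arrays, although these values cannot exclude one. After group means were removed, same-numbered arrays of different groups correlated at -0.37 to 0.38 (median 0.03). Other-numbered arrays of different groups correlated at -0.42 to 0.39 (median -0.04). With a replicate block the mean had 5791 calls and the vehicle arm 0. Genes near background and 4 arrays a group limit the precision. Among named genes that were not called, values changed sign in at least 1 alternative for Fkbp5 (-1.24 to 0.13), Tsc22d3 (-0.52 to 0.13) and Sgk1 (-0.28 to 0.32). Ltf and 4930577N17Rik were not followed. No alternative turned the sign of a named gene called on the mean, but when every probe was tested only the brightest was followed. Dimmer probes of some had the opposite sign. Those of Runx1 (-0.51, adjusted p 0.0285) and Fzd5 (0.77, adjusted p 0.0242) passed in that direction when every probe was tested.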
